A study of Mus musculus with 43 samples.

Results

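B cell and myeloid transcripts were followed in transferred CD4 T cells that had been sorted from mouse recipients. The set held 36 genes chosen by name, 12 of B cells and 24 of neutrophils, macrophages, dendritic cells and antigen presentation. Each was read from the probe set that carried its symbol alone and had the highest mean over all arrays. Of these genes 35 were measured, among 22180 genes on the arrays. The other one, Cd74, the invariant chain of MHC class II, was not analysed here because its probe set carried a second symbol. The labels call every sample sorted CD4 T cells, so these genes mark cells that the sort was set to leave out, apart from any that T cells transcribe themselves.

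B cells and myeloid cells use separate gene programmes. B cells hold a surface immunoglobulin coupled to the signalling chains encoded by Cd79a and Cd79b, under control of Pax5 and Ebf1. Neutrophils store antimicrobial proteins such as S100a8, S100a9, Camp and Ngp, macrophages make lysozyme (Lyz2), and B cells, macrophages and dendritic cells of the mouse display peptides on MHC class II, which resting mouse CD4 T cells do not make.

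The donor cells were AND T cells, which carry a transgenic receptor for a moth cytochrome c epitope, from CD45.1+ Rag2-deficient mice, and they were recovered as CD4+, CD90.2+ and CD45.1+ cells. In the iMCC recipients doxycycline in the drinking water switches on an invariant chain that carries the epitope, in dendritic cells. All of these recipients had received anti-CD40 and 100 µg/ml doxycycline a day before transfer. After the priming days the d10 none and d30 none groups had 0 µg/ml, the d10 low and d30 low groups 10 µg/ml and the d10 int and d30 int groups 100 µg/ml, until the sort at day 10 or day 30. The d30 off group had 100 µg/ml until day 10 and 0 µg/ml from then to day 30. The d10 high group came from cMCC recipients, a different strain whose MHC class II positive cells express the epitope constitutively. Naive AND cells were taken 3 days after transfer into recipients without the transgenes. The d10 int and d10 high groups had 4 arrays each, and the d30 off, d30 none, d30 low, d30 int, d10 none, d10 low and naive groups 5 each, 43 in all. The day 30 cells were sorted in a series of their own, so the day and the series of sorts cannot be told apart. Nothing in the labels says whether the arrays of a group came from separate animals, and p-values here measure the spread between these samples.

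All values are log2 signals as the authors deposited them, and a difference of 1 is a doubling of signal. Levels of different genes come from different probe sets and were not set against each other. A gene was called changed where limma's p, adjusted by Benjamini-Hochberg across the 22180 genes, was under 0.05. In such pooled samples, fewer cells of a type and less RNA per cell cannot be told apart.

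The sort markers were present on every array. Cd4 lay between 8.78 and 10.38, Cd3e between 10.33 and 11.62, Thy1 between 9.69 and 11.4 and Ptprc between 10.62 and 11.42. Naive 3 and naive 4, the arrays with the highest B cell and myeloid signals, fell inside these ranges, with Cd4 at 9.25 and 9.27. Of 35 measured genes, 12 stayed under 4 on all 43 arrays, between 2.13 and 3.81. They were Blk, Ebf1, Cr2 and Jchain of the B cell genes, and Csf1r, Itgam, Itgax, Cd14, Spi1, Clec7a, Ltf and Flt3 of the myeloid genes. The array medians ran from 3.28 to 3.44. Ighm and Ctss exceeded 8 on every array. Of the remaining genes, Pax5 ran from 2.98 to 4.16 over the 38 arrays of primed cells, Ciita from 3.37 to 4.37, Mpeg1 from 2.58 to 4.97 Cd68 from 3.69 to 6.17 and Bank1, a B cell scaffold gene, from 3.1 to 4.64, and none of these was called in any comparison.

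**Figure D1:**
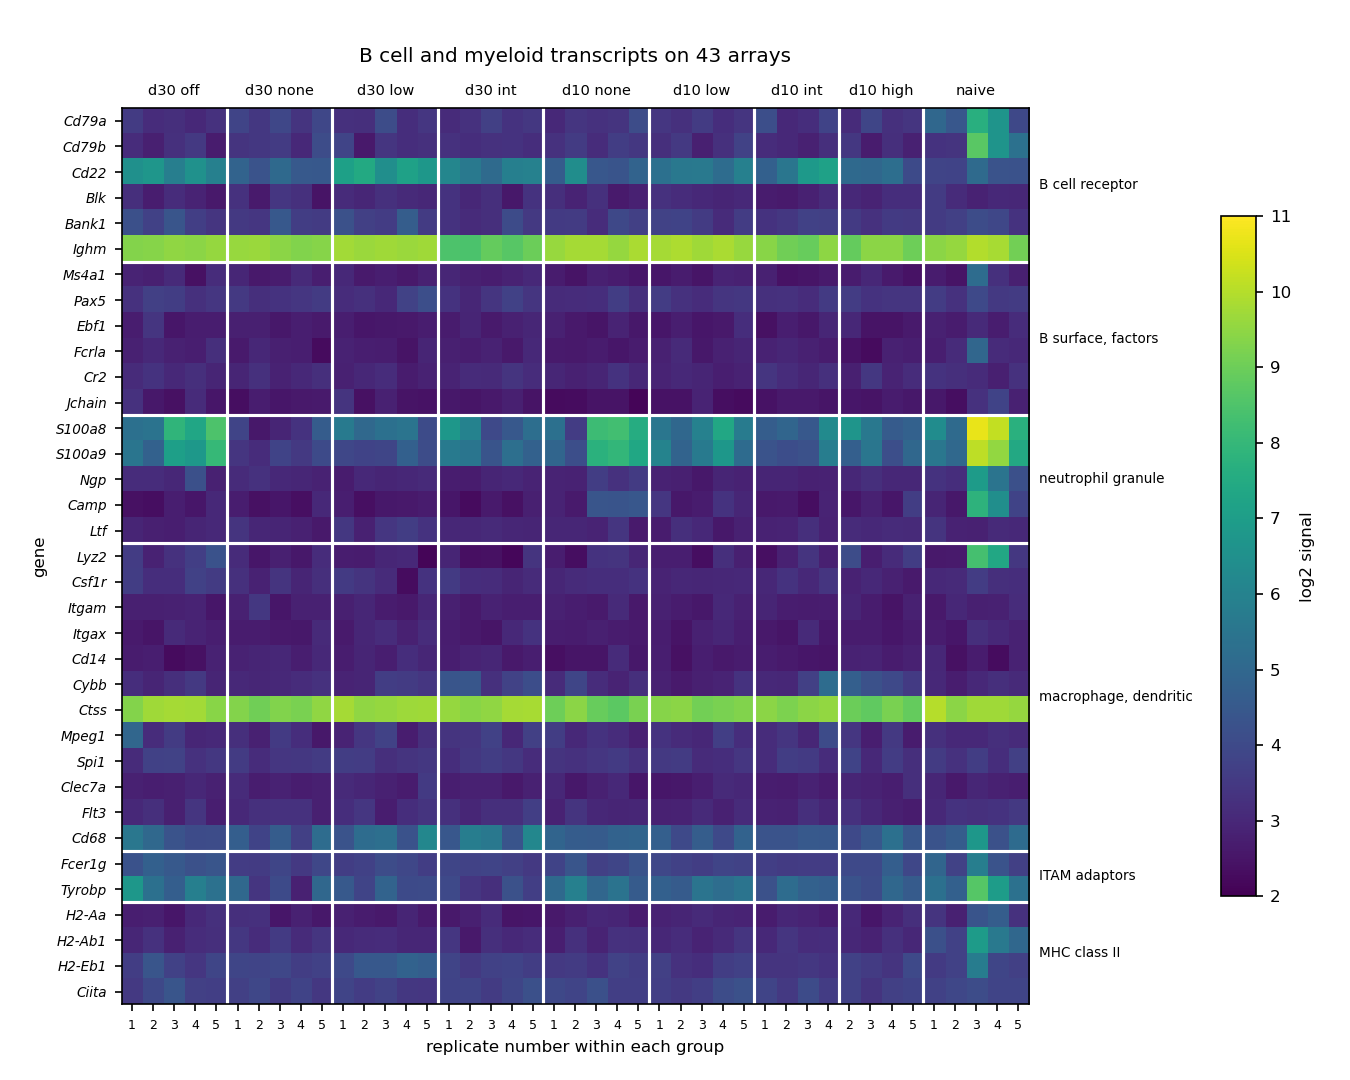
Log2 signal of 35 genes (rows, in role groups) on 43 arrays (columns, in 9 groups, numbered by replicate). Naive 3 and naive 4 are bright for Cd79a, Cd79b, S100a8, S100a9, Ngp, Camp, Lyz2, Tyrobp and H2-Ab1, while Cd22 is brightest in d30 low and Ighm and Ctss exceed 8 on every array.

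The promoters of 4 genes are shown because these genes carry the results: Cd79a and Cd22 are both B cell receptor genes but differed in where they were high, and S100a8 and S100a9, whose products pair, were called in the same 3 comparisons. Each window spans 250 bases before to 50 after the transcription start in RefSeq (GRCm38.p6). Capitals mark a match to the EBF motif (TCCC and GGGA with any 2 bases between) or the PU.1 motif GAGGAAGT, searched on both strands. The windows lie at chr7:24897247-24897546 (plus strand) for Cd79a, chr7:30878979-30879278 (minus strand) for Cd22, chr3:90668821-90669120 (plus strand) for S100a8 and chr3:90695672-90695971 (minus strand) for S100a9.
Cd79a: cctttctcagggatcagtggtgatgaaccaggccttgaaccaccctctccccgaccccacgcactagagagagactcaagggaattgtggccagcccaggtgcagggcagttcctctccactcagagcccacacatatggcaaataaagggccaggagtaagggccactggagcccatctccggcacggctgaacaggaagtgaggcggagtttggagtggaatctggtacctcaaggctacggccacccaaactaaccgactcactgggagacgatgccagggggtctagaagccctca
Cd22: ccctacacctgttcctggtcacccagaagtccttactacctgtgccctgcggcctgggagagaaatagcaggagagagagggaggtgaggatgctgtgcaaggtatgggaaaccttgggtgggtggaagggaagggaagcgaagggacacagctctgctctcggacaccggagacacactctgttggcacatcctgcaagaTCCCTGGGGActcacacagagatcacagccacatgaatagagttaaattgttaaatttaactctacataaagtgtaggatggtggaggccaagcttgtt
S100a8: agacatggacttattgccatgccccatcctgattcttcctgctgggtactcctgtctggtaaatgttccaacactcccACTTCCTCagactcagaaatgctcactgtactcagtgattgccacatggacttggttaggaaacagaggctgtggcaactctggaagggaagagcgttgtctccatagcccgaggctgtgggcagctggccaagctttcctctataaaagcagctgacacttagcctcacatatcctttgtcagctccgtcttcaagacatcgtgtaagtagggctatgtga
S100a9: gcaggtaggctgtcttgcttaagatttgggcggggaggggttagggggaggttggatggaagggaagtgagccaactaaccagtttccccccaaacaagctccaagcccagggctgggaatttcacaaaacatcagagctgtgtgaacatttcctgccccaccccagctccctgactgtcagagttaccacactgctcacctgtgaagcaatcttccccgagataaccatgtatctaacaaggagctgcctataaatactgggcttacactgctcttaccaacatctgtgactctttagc
The Cd22 window held the EBF letters, as did 0.9% of 32851 promoters of that length, and the S100a8 window held the PU.1 letters, as did 3.2%. Neither the Cd79a nor the S100a9 window held either set of letters. The search took these exact letters only, so a window without a match can still hold a variant site. Of 25 measured genes with a promoter entry, Cd22 alone held the EBF motif and S100a8 and Ctss held the PU.1 motif. The octamer ATGCAAAT of immunoglobulin promoters was in none of the 25 and in 1.74% of all promoters. The Y box GATTGG of MHC class II promoters was in 4 of them (Fcrla, Cd68, H2-Aa and H2-Eb1) and in 16.11% of all promoters. Each window shown held at most 1 match to any of these motifs.

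Naive cells held the highest levels of many of these genes, and the signal was concentrated on 2 of their 5 arrays. Cd79a, a signalling chain of the B cell receptor, ran from 3.02 to 4.15 on the 38 arrays of primed cells. It had 7.68 on naive 3 and 6.65 on naive 4, against 5.0, 4.44 and 3.95 on naive 1, 2 and 5. All naive arrays but naive 5 thus lay above every primed array.

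Cd79b, its partner chain, ran from 2.63 to 4.1 in primed cells. It had 8.69 on naive 3 and 6.66 on naive 4, against 3.31, 3.37 and 5.35 on naive 1, 2 and 5. Ms4a1 (CD20) had 5.19 on naive 3 and 3.25 on naive 4, against 2.67, 2.46 and 2.8 on the other 3. Both genes were thus highest on the same pair of arrays, and Cd79b also exceeded every primed array on naive 5.

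Neutrophil genes other than Ltf followed the same arrays. S100a8, a calcium-binding subunit of calprotectin, had 10.7 on naive 3 and 10.18 on naive 4, against 6.39, 5.11 and 7.72 on naive 1, 2 and 5. Camp, the cathelicidin precursor, had 7.81 and 6.46 on naive 3 and 4, against 2.92, 2.57 and 3.8. Ngp, a granule protein gene, had 6.93 and 5.46, against 3.31, 3.17 and 4.21. Ltf (lactoferrin) did not follow them: the primed arrays ran from 2.57 to 3.62 and the naive ones lay inside that range, from 2.82 to 3.37.

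Of the macrophage genes, Lyz2 had 8.34 on naive 3 and 7.39 on naive 4, against 2.61, 2.65 and 3.47 on the other naive arrays. Tyrobp, an adaptor of activating receptors on myeloid and NK cells, had 8.63 and 6.97, against 5.33, 4.76 and 5.36. H2-Ab1, the beta chain of the class II molecule I-A, ran from 2.61 to 3.53 in primed cells. It had 6.93 on naive 3 and 5.63 on naive 4, against 4.2, 3.74 and 5.0, so that all 5 naive arrays exceeded every primed array. Cd68 had 6.77 on naive 3, above every other array, but 4.24 on naive 4, against 4.29, 4.61 and 5.15 on naive 1, 2 and 5. The macrophage and dendritic genes Csf1r, Itgam, Itgax and Cd14 stayed between 2.31 and 3.6 on the naive arrays, naive 3 and 4 included.

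Naive 3 and 4 were singled out for their levels of these genes, and the genes were chosen with earlier results of these data known. The shares that follow thus describe the set and are no test of it. Counted over the set, naive 3 and naive 4 both exceeded the other 3 naive arrays for 18 of 35 genes (51.4%), against 10.9% of all genes. Both exceeded all other 41 arrays for 11 of 35 (31.4%), against 0.491% of all genes. These were Cd79a, Cd79b, Ms4a1, Lyz2, S100a8, S100a9, Tyrobp, Ngp, Camp, H2-Aa and H2-Ab1. Naive 3 was the highest of 43 arrays for 15 of the genes (42.9%), against 3.00% of all genes. Among 12 measured T cell identity genes neither array exceeded all other 41 for any, and among 15 further B cell genes both did so for 3 and among 37 further myeloid genes for 5. Since naive 3 and 4 stand apart, results against naive cells are given with and without them.

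Primed cells kept without antigen had lower levels than naive cells of several of these genes, and the count depended on naive 3 and 4. In d10 none cells 8 of 35 genes (22.9%) were called lower and none higher, against 1.41% of all genes lower and 3.30% called either way (limma). The median difference over the 35 genes was -0.26, against -0.01 over all genes. In d30 none cells 13 of 35 (37.1%) were called lower and none higher, against 2.35% of all genes lower and 4.33% either way, with a median of -0.20 against 0.02. Both comparisons share the naive arrays. Naive cells differed from both none groups in priming, day after transfer, recipient transgenes and doxycycline, so these cannot be told apart.

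In d10 none cells Cd79a had 3.02, 3.39, 3.28, 3.37 and 4.08, and 4 of these 5 arrays lay below all naive ones. The difference from naive cells was -2.12 ± 0.36 (SE, adjusted p = 7.92e-05), and without naive 3 and 4 it was -1.04 with adjusted p = 0.00892. In d30 none cells Cd79a had 3.84, 3.47, 3.93, 3.37 and 3.9, all below the naive arrays, a difference of -1.84 ± 0.36 (adjusted p = 0.000806). That call was lost without naive 3 and 4, where the difference was -0.76 (adjusted p = 0.0712).

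H2-Ab1 kept its call in both comparisons. It had 2.74, 3.26, 2.91, 3.28 and 3.26 in d10 none cells and 3.45, 3.15, 3.53, 3.12 and 3.4 in d30 none cells, and every one of these arrays lay below every naive array. The difference from naive cells was -2.01 ± 0.28 (adjusted p = 1.62e-06) for d10 none and -1.77 ± 0.28 (adjusted p = 2.5e-05) for d30 none. Without naive 3 and 4 it was -1.22 (adjusted p = 1.72e-05) and -0.98 (adjusted p = 0.000774).

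S100a8 was also lower on day 30 with and without the 2 arrays. It had 3.85, 2.58, 2.92, 3.32 and 4.62 in d30 none cells, all below the lowest naive array at 5.11. The difference was -4.56 ± 0.79 (adjusted p = 0.000148), and -2.95 (adjusted p = 0.0276) without naive 3 and 4. S100a9, the other calprotectin subunit, had 3.39, 3.15, 3.81, 3.49 and 4.02 in d30 none cells, against 5.58, 5.05, 10.12, 9.53 and 7.44 in naive cells, a difference of -3.97 ± 0.67 (adjusted p = 0.000101), or -2.45 (adjusted p = 0.0225) without the 2 arrays. Of the naive arrays that remain without naive 3 and 4, naive 5 was the highest, at 7.72 for S100a8, 7.44 for S100a9 and 5.0 for H2-Ab1. In d10 none cells neither S100a8 nor S100a9 was called against naive cells, with S100a8 at -1.44 ± 0.79 (adjusted p = 0.493).

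Ctss, encoding the lysosomal protease cathepsin S, had 9.0, 9.45, 8.92, 8.73 and 9.19 in d10 none cells, against 9.99, 9.45, 9.7, 9.72 and 9.58 in naive cells, where naive 3 and 4 did not stand out. The difference was -0.63 ± 0.12 (adjusted p = 0.000548), and it was -0.62 (adjusted p = 0.00964) without naive 3 and 4. In d30 none cells the difference was -0.41 ± 0.12 (adjusted p = 0.0371), and without them it was nearly as large, -0.40, but not called (adjusted p = 0.132).

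The other calls against naive cells were lost without naive 3 and 4. In d10 none cells these were Cd79b (-2.05 ± 0.48), the Fc receptor-like gene Fcrla (-0.74 ± 0.21), the immunoglobulin joining chain gene Jchain (-0.63 ± 0.18), Ngp (-1.37 ± 0.34) and H2-Aa, the alpha chain of I-A (-0.89 ± 0.20). In d30 none cells they were Cd79b (-1.97 ± 0.48), Fcrla (-0.69 ± 0.21), Ngp (-1.57 ± 0.34), Camp (-2.10 ± 0.50), Lyz2 (-2.05 ± 0.58), Tyrobp (-2.15 ± 0.45), the Fc receptor gamma chain gene Fcer1g (-0.81 ± 0.23) and H2-Aa (-0.81 ± 0.20), besides Cd79a and Ctss named above. Without naive 3 and 4 these differences were smaller to unequal degrees. In d30 none cells Tyrobp still differed by -1.09 (adjusted p = 0.128), Ngp by -0.52, Cd79b by -0.50, Camp by -0.48, Fcer1g by -0.44, H2-Aa by -0.27 and Fcrla by -0.26, while Lyz2 differed by -0.07 (adjusted p = 0.942). In d10 none cells Cd79b differed by -0.59 (adjusted p = 0.592), H2-Aa by -0.35, Ngp and Fcrla by -0.32 each and Jchain by -0.25. Without naive 3 and 4, 3 of 35 genes were called in d10 none cells, against 1.52% of all genes, and 3 of 35 in d30 none cells, against 2.68%. Of 21 calls against naive cells, 6 were kept.

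**Figure D2:**
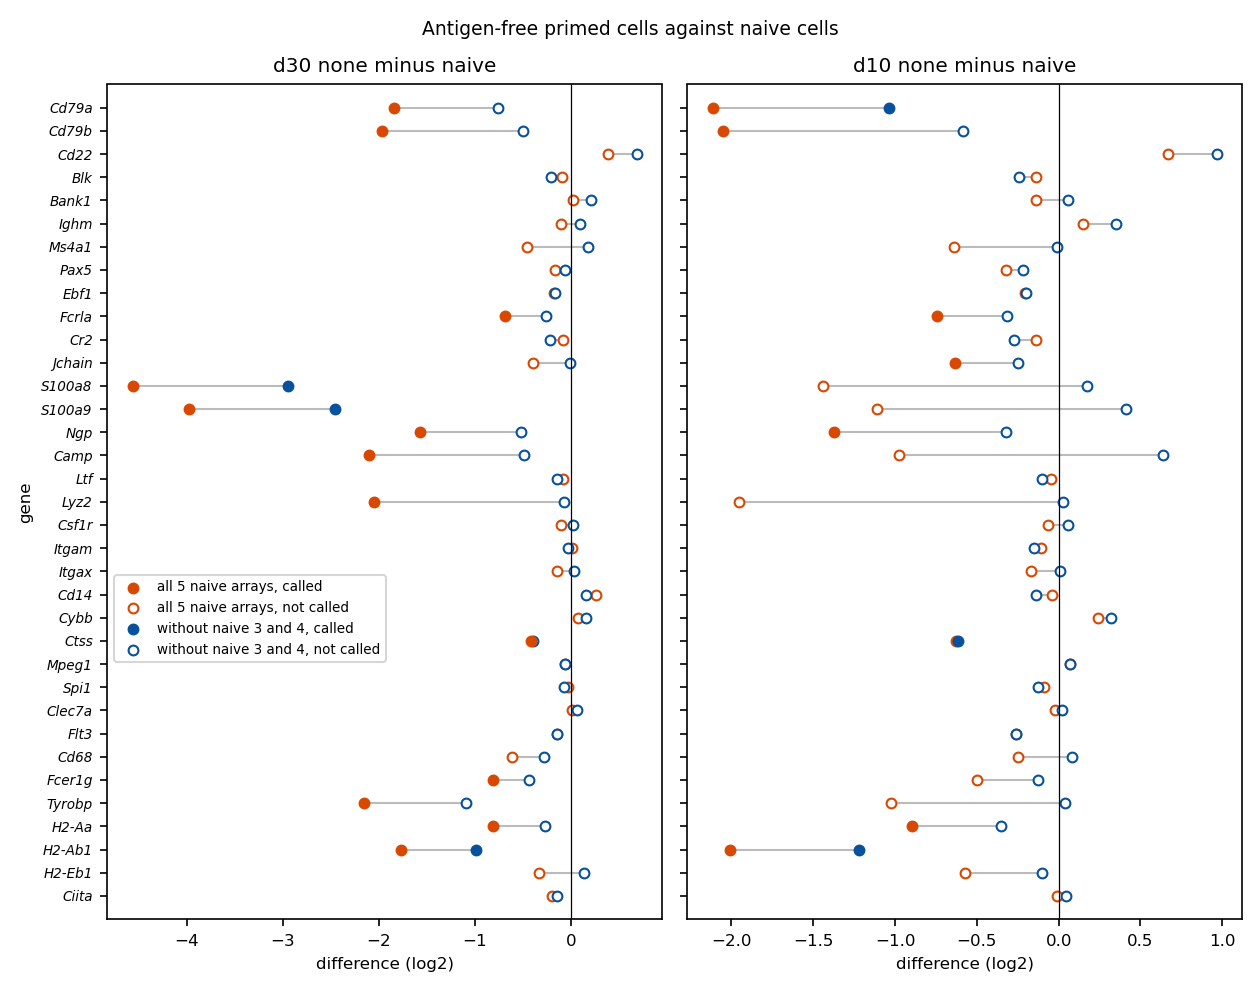
Difference from naive cells (log2, horizontal axis) of 35 genes in d30 none (left) and d10 none (right), with all 5 naive arrays (orange) and without naive 3 and 4 (blue). Filled points were called at adjusted p under 0.05; most orange points far to the left move toward 0 in blue, and H2-Ab1 stays filled in both panels.

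Genes of the same kinds outside the set were counted beside them. Of 15 further B cell genes, 3 were lower in d10 none than in naive cells and 4 in d30 none, among them Ly6d (-1.48 ± 0.34, adjusted p = 0.00578, on day 10) and the octamer coactivator gene Pou2af1 (-1.86 ± 0.34, adjusted p = 0.000304, on day 30). Of 12 further class II pathway genes, 3 were lower in d10 none cells, the largest change being H2-Oa (-2.27 ± 0.32, adjusted p = 2.98e-06), which encodes a chain of the class II modulator H2-O, and in d30 none cells 2 were lower and 2 higher. Of 37 further myeloid genes none was called in d10 none cells and Lcn2 alone was lower in d30 none cells (-0.87 ± 0.26, adjusted p = 0.0471). None of 5 measured erythroid and platelet genes was called in either comparison. Of 11 further dendritic cell genes 1 was lower in d10 none cells, and 2 were lower and 1 higher in d30 none cells. Of 12 measured T cell identity genes 2 were lower and 1 higher in d10 none cells, and 1 was lower in d30 none cells. Of 7 measured genes of NK, CD8 and gamma delta T cells none was called in d10 none cells, and Eomes, a T-box factor of NK and CD8 T cells, was lower in d30 none cells (-1.87 ± 0.48, adjusted p = 0.0138).

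The same lists were counted without naive 3 and 4, a setting chosen for them after the data were seen. None of the 15 B cell genes was then called in d10 none cells, where Ly6d differed by -0.46 (adjusted p = 0.513), and Pou2af1 alone was lower in d30 none cells (-1.42, adjusted p = 0.0264). H2-Oa was still lower in d10 none cells (-1.78, adjusted p = 0.0011), as 1 of 2 class II pathway genes lower, and 1 of these genes was lower and 1 higher in d30 none cells. Lcn2 was no longer called (-0.10, adjusted p = 0.81), and of the 37 myeloid genes 1 was higher in d10 none cells (Plac8) and 2 in d30 none cells (Plac8 and Cst3). No dendritic cell gene was called in d10 none cells, and 1 was lower and 1 higher in d30 none cells. Of the T cell identity genes 2 were lower in d10 none cells and 3 in d30 none cells. Eomes differed by -1.63 in d30 none cells and was not called (adjusted p = 0.113), Ncr1 alone of its list was higher there, and no erythroid or platelet gene was called in either comparison.

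Cd22, an inhibitory receptor of B cells that binds sialic acids, was highest in d30 low cells. Its naive 3 and 4 arrays had 5.11 and 4.3, against 3.84, 3.8 and 4.25 on the other naive arrays, and both lay inside the primed range of 4.02 to 7.47, as they did for Blk, Pax5, Ebf1, Cr2 and Bank1. In d30 low cells it had 7.13, 7.47, 6.45, 7.16 and 6.76, against 4.85, 4.31, 5.08, 4.52 and 4.48 in d30 none cells. Every d30 low array exceeded every d30 none array.

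The means were 6.99 ± 0.39 in d30 low and 4.65 ± 0.31 in d30 none (SD, n = 5 each), and the difference was 2.35 ± 0.34 (SE, adjusted p = 4.93e-05 in limma), a 5.08-fold higher signal. It was the one gene of the 35 called in that comparison (2.86%, against 0.654% of all genes), and its call held in all 10 other settings and without each of 10 arrays in turn. The 11 other B cell genes were not called there, with Cd79a at 3.43 ± 0.38 in d30 low and 3.70 ± 0.26 in d30 none, and none of 15 further B cell genes was called. Ighm was read there by its brightest probe set alone, and others are given below.

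Cd22 was also higher after withdrawal of antigen. In d30 off cells it had 6.53, 6.72, 5.84, 6.57 and 5.92, all above the d30 none arrays, a difference of 1.67 ± 0.34 (adjusted p = 0.0137). That call ended without d30 off 1 or d30 off 2, where the adjusted p reached 0.0611, and with array weights, at 0.1. In d30 int cells it had 6.13, 5.65, 5.11, 5.9 and 5.95, and although all 5 exceeded the d30 none arrays the difference of 1.10 ± 0.34 was not called (adjusted p = 0.0804). The d30 low, d30 int and d30 off comparisons share the d30 none arrays.

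Day 10 levels of Cd22 scattered more. They were 4.61, 6.4, 4.45, 4.34 and 4.85 in d10 none, 5.31, 5.61, 5.65, 5.19 and 5.91 in d10 low, 4.76, 5.52, 6.87 and 7.15 in d10 int and 5.07, 4.99, 5.24 and 4.02 in d10 high. All groups overlapped with d10 none, in which replicate 2 stood above the rest. The differences from d10 none were 0.60 ± 0.34 for d10 low (adjusted p = 1.0), 1.15 ± 0.36 for d10 int (adjusted p = 0.135) and -0.10 ± 0.36 for d10 high, and none was called.

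Every d30 low array exceeded every d10 low array for Cd22, a difference of 1.46 ± 0.34 (adjusted p = 0.0115). The d30 low effect exceeded the d10 low effect, each against its own none group, by 1.74 ± 0.48, with an unadjusted p of 0.000802 that did not pass adjustment (0.349). In order of group means Cd22 ran from d30 low through d30 off, d10 int, d30 int, d10 low, d10 none, d10 high and d30 none to naive, at 6.99, 6.32, 6.08, 5.75, 5.53, 4.93, 4.83, 4.65 and 4.26. Arrays of every neighbouring pair in this order overlapped in level.

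**Figure D3:**
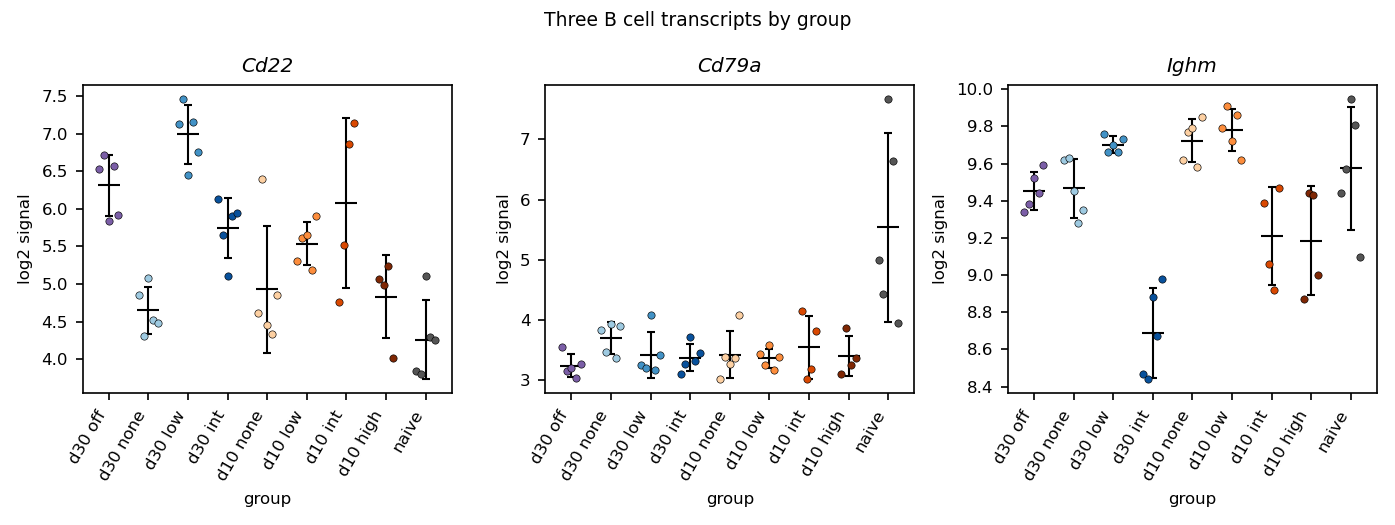
Log2 signal of Cd22, Cd79a and Ighm on each array (points) by group, with the group mean and SD (bars, n = 4 or 5). Cd22 is highest in d30 low, between 6.45 and 7.47, Cd79a exceeds 4.15 on 4 naive arrays and on no other, and Ighm is lowest in d30 int, between 8.44 and 8.98.

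Genes whose signal moved with Cd22 within groups were described by Pearson's r of the deviations from the group means, over the 41 arrays other than naive 3 and 4. The closest outside the set were Wars2 (r = 0.686, Spearman's rho = 0.714), Ifng, the T helper cytokine interferon gamma (r = 0.658, rho = 0.579), Oog1, Cd226 and Magee2. Of the closest 5 over all 43 arrays 4 were the same. Within the set the closest to Cd22 were Cybb (r = 0.617, rho = 0.455) and Flt3 (r = 0.567, rho = 0.617), and Flt3 stayed under 4 on every array. Of the closest 5 genes outside the set, Cd79a and Lyz2 had 0 in common between 43 and 41 arrays. Within the set Lyz2 lay closest over 41 arrays to S100a8 (r = 0.615) and Camp (r = 0.507). All points share the arrays and their RNA yields, and no test was made.

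Ighm, the immunoglobulin mu heavy chain gene, was lower where antigen was kept at the intermediate dose. It had 8.47, 8.44, 8.88, 8.67 and 8.98 in d30 int cells, against 9.62, 9.63, 9.45, 9.28 and 9.35 in d30 none cells, and the groups did not overlap. The difference was -0.78 ± 0.13 (adjusted p = 8.93e-05), a 0.583-fold signal. This was the one call among 35 genes (2.86%, against 2.21% of all genes), a share near the background.

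In d30 off cells Ighm had 9.34, 9.38, 9.52, 9.44 and 9.59, all above the d30 int arrays, with a difference of 0.77 ± 0.13 from d30 int (adjusted p = 0.000522). In that comparison 2 of 35 genes were called (5.71%, against 0.464% of all genes). The d30 off and d30 none arrays overlapped. On day 10 Ighm had 9.39, 9.06, 8.92 and 9.47 in d10 int and 8.87, 9.44, 9.43 and 9.0 in d10 high, against 9.62, 9.77, 9.79, 9.58 and 9.85 in d10 none, with no overlap with d10 none. It differed by -0.51 ± 0.14 in d10 int (adjusted p = 0.0433) and by -0.54 ± 0.14 in d10 high (adjusted p = 0.00976). Each was the one call of 35 genes, against 1.24% of all genes for d10 int and 5.25% for d10 high.

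The d10 int call of Ighm ended without any one of 6 of the 9 arrays (d10 int 2 and 3, d10 none 1, 2, 3 and 5), and the d10 high call ended without d10 high 2, at an adjusted p of 0.0773. Ighm was read by 7 probe sets, and with their mean in place of the brightest none of these calls held (adjusted p = 0.474 for d30 int). A second Ighm probe set had 5.75 ± 0.40 in d30 int and 5.81 ± 0.49 in d30 none (SD, n = 5 each). This second set was highest in d30 low, at 7.55 ± 1.28. Its arrays ran from 6.46 to 9.29 there and from 5.25 to 6.47 in d30 none. Another had 4.75 ± 0.67 in d30 low and 3.87 ± 0.49 in d30 none. A dimmer probe set went the other way, at 2.95 ± 0.19 and 3.47 ± 0.76. No test was made on these probe sets singly. The probe sets thus differed, and which transcripts each reads was not tested.

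The calprotectin genes S100a8 and S100a9 were higher in d30 off than in d30 none cells, with wide scatter inside the groups. In d30 off cells S100a8 had 5.31, 5.44, 7.9, 7.34 and 8.49, against 3.85, 2.58, 2.92, 3.32 and 4.62 in d30 none cells. S100a9 had 5.51, 4.78, 7.07, 6.8 and 8.04 in d30 off cells, against 3.39, 3.15, 3.81, 3.49 and 4.02 in d30 none. No d30 off array overlapped with d30 none for either gene. For both genes replicates 3, 4 and 5 exceeded replicates 1 and 2 in d30 off, d10 none and naive cells. In d30 low and d30 int cells neither gene did so. Whether the shared numbers mark a batch was not tested.

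The difference was 3.44 ± 0.79 for S100a8 (adjusted p = 0.0365) and 2.87 ± 0.67 for S100a9 (adjusted p = 0.0458). With Cd22 they made 3 of 35 genes called in d30 off (8.57%, against 0.266% of all genes). The S100a8 call was lost without any one of 7 of the 10 arrays (d30 none 1 to 4 and d30 off 3 to 5), and the S100a9 call without any array but d30 off 2, with adjusted p up to 0.12 and 0.136. Both calls ended without a variance trend and with array weights, and that of S100a9 also with quantile normalization. Without naive 3 and 4 in the fit the same differences had adjusted p of 0.0105 and 0.00797. Of the other neutrophil genes, Camp had 2.62 ± 0.29 in d30 off and 2.61 ± 0.27 in d30 none, and Ngp 3.26 ± 0.53 and 3.05 ± 0.17, with a single high array, d30 off 4 at 4.18.

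Beside them, 1 of 37 further myeloid genes was called in d30 off against d30 none, the complement gene C1qb (0.73 ± 0.16, adjusted p = 0.0199), and the mean of the 37 lay between 3.479 and 3.53 in d30 off and between 3.345 and 3.511 in d30 none. Tyrobp had 6.77, 5.33, 4.7, 5.9 and 5.34 in d30 off cells, against 3.98, 3.41, 3.2, 4.24 and 3.66 in d30 int cells, a difference of 1.91 ± 0.45 (adjusted p = 0.027) with no overlap. Against d30 none, which had 5.04, 3.4, 4.02, 2.84 and 4.99, the Tyrobp difference of 1.55 ± 0.45 was not called (adjusted p = 0.144), and with naive 3 and 4 out of the fit it was (adjusted p = 0.0221). The call against d30 int ended without any one of d30 int 2, 3 or 5 or d30 off 1, 4 or 5, with adjusted p up to 0.12. Fcer1g ran from 4.24 to 4.76 in d30 off cells, above all arrays of d30 none (3.51 to 3.93) and d30 int (3.49 to 3.87), but was not called. For the 12 macrophage and dendritic genes of the set the differences of d30 off from d30 none ran from -0.31 (Cd14) to 0.71 (Lyz2). Their median was 0.06 and none was called. The part of other cells in these results was not tested.

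In cells without antigen the calprotectin genes were lower on day 30 than on day 10. S100a8 had the d30 none values above, against 5.31, 3.6, 8.16, 8.27 and 7.57 in d10 none, a difference of -3.12 ± 0.79 (adjusted p = 0.0191), and d10 none 2 lay inside the range of the day 30 arrays. S100a9 had 4.95, 4.17, 7.74, 7.97 and 7.35 in d10 none, all above d30 none, a difference of -2.86 ± 0.67 (adjusted p = 0.0117). These were 2 of 35 genes (5.71%, against 3.43% of all genes), a share near the background. With naive 3 and 4 out of the fit 4 of 35 were called, Camp (-1.12, adjusted p = 0.0101) and Tyrobp (-1.13, adjusted p = 0.0474) among them. The S100a8 call ended without d10 none 3, 4 or 5, with adjusted p up to 0.0716, and Camp was raised on those same 3 arrays, at 4.36, 4.33 and 4.44, against 2.88 and 2.66 on d10 none 1 and 2.

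**Figure D4:**
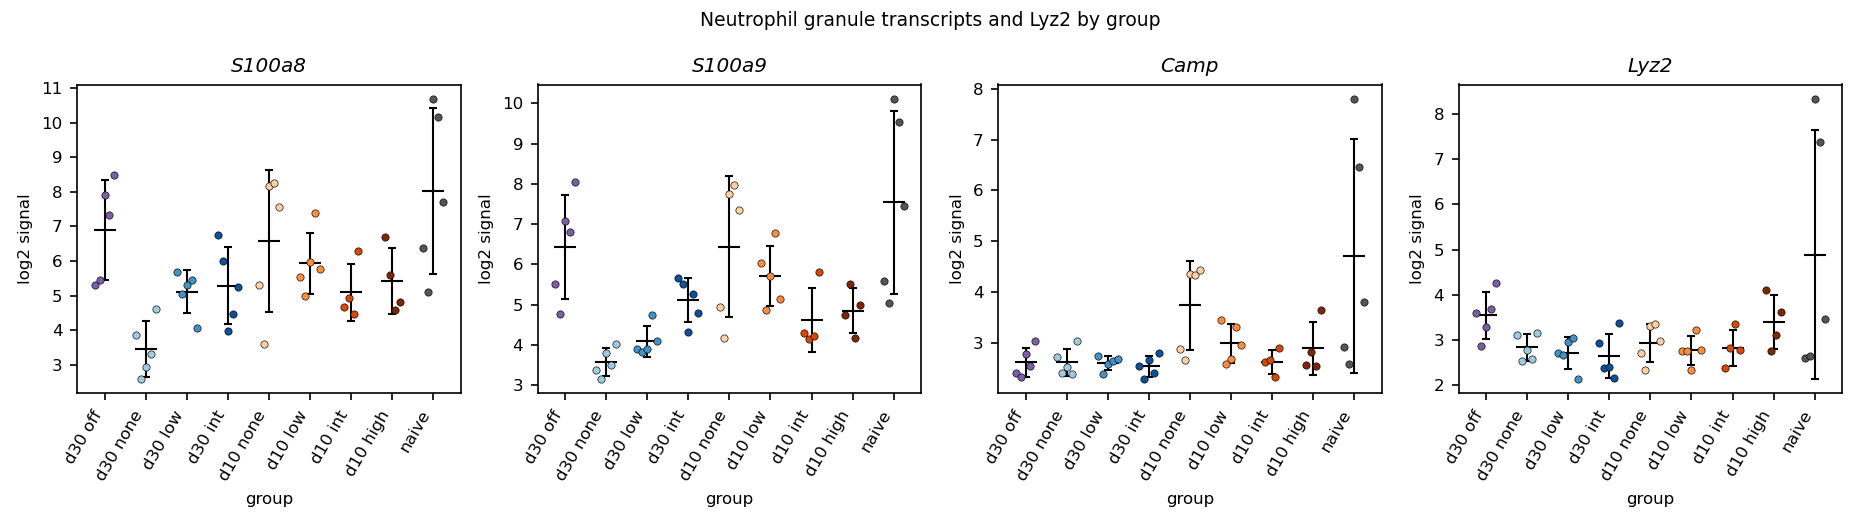
Log2 signal of S100a8, S100a9, Camp and Lyz2 on each array (points) by group, with mean and SD (bars, n = 4 or 5). Naive 3 and 4 lead all panels, d10 none 3, 4 and 5 stand above d10 none 1 and 2 for S100a8, S100a9 and Camp, and S100a8 in d30 off (5.31 to 8.49) lies above d30 none (2.58 to 4.62).

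The class II beta chain gene H2-Eb1 was higher in d30 low than in d10 low cells. It had 3.99, 4.49, 4.47, 4.83 and 4.7 in d30 low, against 3.71, 3.28, 3.18, 3.63 and 3.73 in d10 low, with no overlap and a difference of 0.99 ± 0.23 (adjusted p = 0.0128). With Cd22 this made 2 of 35 genes called (5.71%, against 2.87% of all genes). The call ended without d10 low 3, at an adjusted p of 0.0552. Against d30 none, which had 3.87, 3.84, 3.9, 3.65 and 3.74, every d30 low array was higher, but the difference of 0.70 ± 0.23 was not called (adjusted p = 0.187). With naive 3 and 4 out of the fit the same difference was called (adjusted p = 0.0151). The alpha and beta chains of I-A were not called in either comparison, with H2-Ab1 at 3.04 ± 0.08 in d30 low and 3.09 ± 0.18 in d10 low.

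Cybb, the catalytic subunit of the phagocyte NADPH oxidase, came close to the threshold in 2 groups. In d30 int cells it had 4.36, 4.41, 3.26, 3.76 and 4.13, against 3.03, 2.97, 3.02, 3.13 and 3.29 in d30 none, a difference of 0.90 ± 0.26 (adjusted p = 0.0522). In d10 high cells it had 4.71, 4.23, 3.97 and 3.52, against 3.11, 3.88, 3.15, 2.91 and 3.23 in d10 none, a difference of 0.85 ± 0.27 (adjusted p = 0.058). Neither was called, and in both one or more arrays overlapped. The d30 int difference was called in 4 of 9 other settings and on leaving out 1 of 10 arrays. The d10 high difference was called in 1 of 9 other settings and on leaving out 2 of 9 arrays, each in turn. Over all primed arrays Cybb ran from 2.65 to 5.19, and its naive arrays lay inside that range, with 3.04 and 3.22 on naive 3 and 4.

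**Figure D5:**
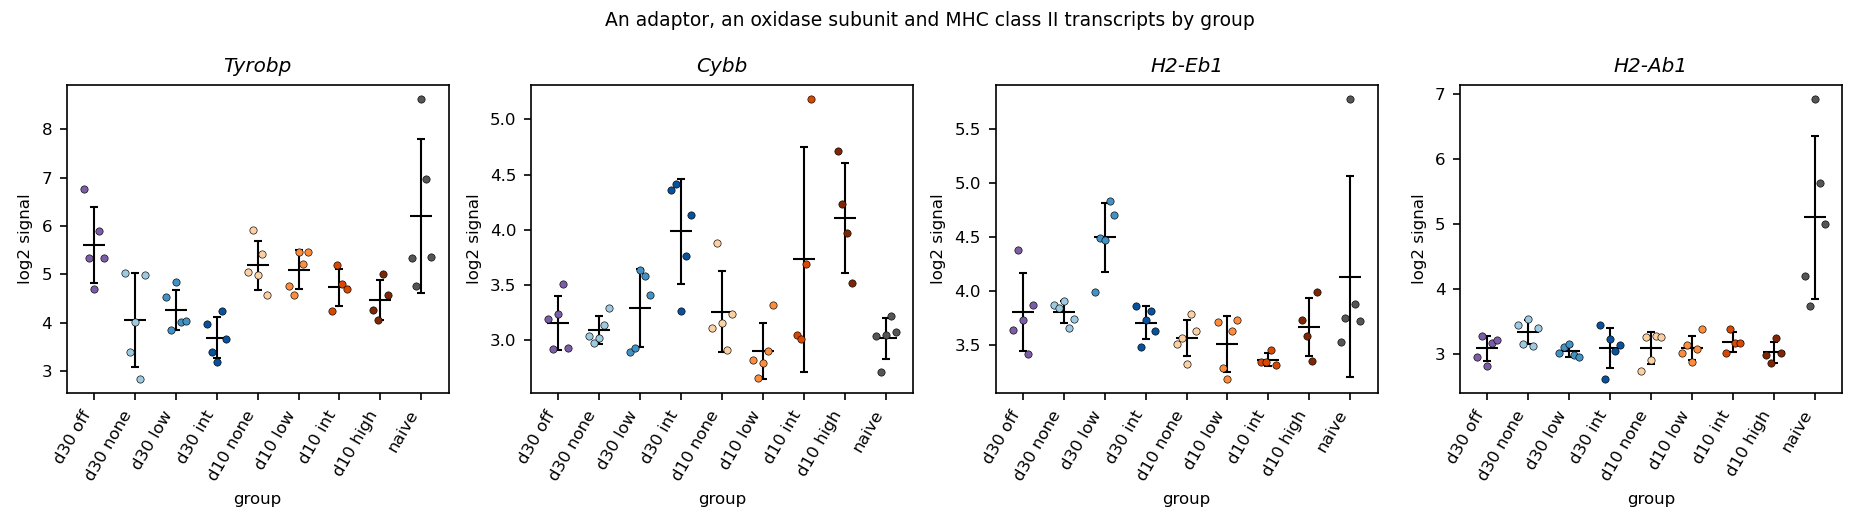
Log2 signal of Tyrobp, Cybb, H2-Eb1 and H2-Ab1 on each array (points) by group, with mean and SD (bars, n = 4 or 5). Tyrobp in d30 off (4.7 to 6.77) lies above d30 int (3.2 to 4.24), H2-Eb1 in d30 low (3.99 to 4.83) lies above d10 low (3.18 to 3.73), and all 5 naive arrays of H2-Ab1 lie above every primed array.

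No gene of the 35 was called in the remaining comparisons by limma. These were d10 low against d10 none, where 0.00451% of all genes were called and 0 of the 35 had an unadjusted p under 0.05, d10 high against d10 int (2.99% of all genes, 4 with an unadjusted p under 0.05), and d30 int against d10 int (0.712%, 3 of 35). The closest in d10 high against d10 int was Cd22 at -1.25 ± 0.38 (adjusted p = 0.0641), and in d30 int against d10 int it was Ighm at -0.52 ± 0.14 (adjusted p = 0.0538). The antigen effect of day 30 minus that of day 10 was called for no gene of the set, either for the intermediate dose (0.0902% of all genes called, 3 of 35 with an unadjusted p under 0.05) or for the low dose (0.0316%, 4 of 35). S100a9 had the smallest p for the intermediate dose, at 3.36 ± 0.98 (adjusted p = 0.352).

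Among the further lists in the antigen comparisons, the B cell genes Pou2af1 and Pou2f2, a coactivator and an octamer-binding factor also known from activated T cells, were higher in d30 int than in d30 none cells, by 1.48 ± 0.34 (adjusted p = 0.00679) and 1.21 ± 0.26 (adjusted p = 0.00364), as 2 of 15 genes. On day 10 Pou2af1 was higher in d10 int than in d10 none cells (1.55 ± 0.36, adjusted p = 0.0122), as 1 of 15. Both were higher in d10 high than in d10 none cells, Pou2af1 by 1.19 ± 0.36 (adjusted p = 0.0391) and Pou2f2 by 1.40 ± 0.28 (adjusted p = 0.000506). Of 11 further dendritic cell genes, Irf8, a transcription factor of myeloid and lymphoid cells, was higher in d30 low than in d30 none (1.89 ± 0.30, adjusted p = 0.000149), in d30 int than in d30 none (1.09 ± 0.30, adjusted p = 0.0329) and in d10 int than in d10 none (2.04 ± 0.31, adjusted p = 4.3e-05). Irf8 was lower in d10 high than in d10 int (-1.46 ± 0.33) and in d30 off than in d30 int (-1.29 ± 0.30). Eomes, of the NK, CD8 and gamma delta list, was higher in d30 int than in d30 none (4.11 ± 0.48, adjusted p = 8.5e-08 in limma). It was also higher in d10 int than in d10 none (3.15 ± 0.51, adjusted p = 8.3e-05). Eomes was lower in d10 high than in d10 int (-2.88 ± 0.53) and in d30 off than in d30 int (-2.30 ± 0.48). Of the 12 B cell genes of the set, Cd22 and Ighm alone were called in antigen comparisons. Ighm was lower in d10 int, d10 high and d30 int than in the none groups, and higher in d30 off than in d30 int. The fit shares 1 estimate of spread per gene over all arrays, naive 3 and 4 included, which can hide changes of genes such as Cd79a, Cd79b and Ms4a1. Of 12 measured T cell identity genes 3 were higher and 2 lower in d10 high than in d10 none cells, against 5.25% of all genes called. The source of the Cd22, Pou2af1, Pou2f2, Irf8 and Eomes signal was not tested. Over the 15 tests 17 of the 35 genes were called at least once and 18 never, and 6 genes were called outside the naive comparisons: Cd22, Ighm, S100a8, S100a9, Tyrobp and H2-Eb1.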

How the data were processed

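Each of 43 arrays held the RNA of 1 sample of sorted CD4 T cells, amplified from small amounts and biotin-labelled with Ovation Pico and Encore reagents, per the labels' protocols. The values are log2 signals per probe set, used as deposited by the authors; their log base was judged from the range of 1.46 to 13.87, and how they were background-corrected, summarized and normalized is not stated in the labels. Differences of dim genes can be understated near the bottom of the scale. Precision is limited by the number of arrays.

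The platform annotation gave 1 symbol to 23521 of 41345 probe sets, more than that to 1814 and no symbol to 16010. Probe sets with 1 symbol were kept, and the one with the highest mean for the 1082 symbols that had several, which left 22180 genes; RefSeq held 22139 of these names and all 35 names analysed here. Every table column was matched to its sample by identifier, and groups came from the sample titles. No pair of arrays shared more than 1.77% identical values, and none was counted as a repeat.

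With limma 3.58.1 under R 4.3.3, all arrays entered 1 linear model of 9 group means (lmFit, contrasts.fit, eBayes with a trend), and p-values were adjusted by Benjamini-Hochberg over 22180 genes. There were 13 differences between groups and 2 interactions, 525 tests of the 35 genes. On simulated data for d30 low against d30 none, with 50 genes planted at each size among 22180, the share recovered was 44% for a log2 change of 0.5, 82% for 1, 98% for 1.5 and 100% for 2. The planted genes were drawn at random from all genes, so these shares do not hold for variable genes of the set. Tyrobp, at 1.55 in d30 off against d30 none, was not called. Of 174 calls 12 were false.

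Titles number the replicates. Deviations from the group means of same-numbered arrays correlated between -0.138 and 0.117, and in no comparison did every pair exceed 0.1, so the numbers were not taken as pairs. This check pooled all genes and does not speak for single ones such as S100a8 and S100a9.

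The genes and the 7 further lists were chosen with earlier results of these data known. All 35 genes were eligible, with values per array for those called in a comparison or higher on naive 3 and 4 than on the other naive arrays, and ranges and counts for the rest; where a gene was called only through naive 3 and 4, its difference is given instead of each value. Outside them, the sort markers, the 5 genes closest in pattern to Cd79a, Lyz2 and Cd22, and up to 4 called genes of a list with the largest change could be named. The alternatives were quantile normalization, centring, no variance trend, array weights, the compared groups alone, the replicate number as a block, no dim genes, the mean over probe sets, and leaving out arrays. Plots were drawn with matplotlib 3.10.9.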

Additional observations from a re-analysis of the deposited data

Results flagged for a closer look

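In 17 of 315 groups of values (5.4%), the highest or lowest array stood apart from the rest by Dixon's criterion, which sets the gap to the nearest array against the range of the group. Chance flags about 1 in 20 groups. Naive 3 was the high array for 3 genes, Ms4a1 at 5.19, Fcrla at 4.96 and H2-Eb1 at 5.78. Among the B cell genes on day 30, d30 low 3 was high for Cd79a at 4.09, d30 off 2 for Ebf1 at 3.4 and d30 none 3 for Bank1 at 4.49. On day 10, d10 none 2 was high for Cd22 at 6.4 and d10 none 4 for Pax5 at 3.63.

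Of the neutrophil genes, S100a9 was high on d10 int 4 at 5.82, Ltf on d10 int 3 at 3.21, and Ngp on d10 high 3 at 3.2 and on d30 off 4 at 4.18. Fcer1g was high on d10 high 4 at 4.69. Of the dim myeloid genes, Itgax was low on d10 high 4 at 2.56 and high on d30 none 5 at 3.06, Cd14 was high on d10 none 4 at 3.11, and Flt3 was high on d10 none 2 at 3.34. The cause of these values was not tested.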

How the results depend on the processing

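Across all settings no difference of a called gene changed sign. Of 34 calls, 16 held on leaving out every array in turn, 12 in every other setting that tested the gene and 9 in all of these. A further 20 pairs of gene and comparison were called in an alternative alone. The setting without dim genes tested only genes with a mean above the median of 3.388. Its lower counts against naive cells came from called genes that were no longer tested, and no call of a gene still tested ended there. Counts of the 35 genes called that moved by over 1.5 times were as follows, and the cause of the other moves was not tested. For d10 none against naive it was 8, and 3 without dim genes, 3 without naive 3 and 4, 3 without those and d10 none 4 and d10 high 2, and 3 with the compared groups alone. For d30 none against naive it was 13, and 7, 3, 3 and 3 in the same settings. For d10 int against d10 none it was 1, and 0 with centring, 0 without a variance trend, 0 with the replicate number as a block, 0 with the mean over probe sets, 0 with the compared groups alone and 2 without naive 3 and 4. For d10 high against d10 none it was 1, and 2 with quantile normalization, 0 with the mean over probe sets and 0 with the compared groups alone. For d10 high against d10 int it was 0, and 1 with quantile normalization and 2 without dim genes. For d30 low against d30 none it was 1, and 2 without naive 3 and 4 and 2 without the 4 arrays. For d30 int against d30 none it was 1, and 2 with quantile normalization, 2 with centring, 0 with the mean over probe sets, 2 without the 4 arrays and 4 with the compared groups alone. For d30 off against d30 none it was 3, and 1 without a variance trend and 0 with array weights; smaller moves were to 2 with quantile normalization and to 4 without naive 3 and 4 or without the 4 arrays. For d30 off against d30 int it was 2, and 1 with the mean over probe sets. For d30 none against d10 none it was 2, and 4 without naive 3 and 4 and 4 without the 4 arrays. For d30 int against d10 int it was 0, and 1 with quantile normalization, 1 with array weights, 1 without dim genes, 1 without naive 3 and 4 and 1 without the 4 arrays.

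On leaving out 1 array at a time the count ran from 5 (without naive 3) to 10 (without naive 2) for d10 none against naive and from 6 (without naive 3) to 13 for d30 none against naive. It ran from 0 to 2 for d10 int and from 0 to 2 for d10 high against d10 none, from 0 to 1 for d10 high against d10 int, from 1 to 2 for d30 int, from 1 to 2 for d30 off and at 1 throughout for d30 low against d30 none. It ran from 1 to 2 for d30 off against d30 int, from 1 to 2 for d30 none against d10 none, from 1 to 3 for d30 low against d10 low and from 0 to 1 for d30 int against d10 int. For d10 low against d10 none and both interactions it was 0 throughout. With the replicate block the count for d30 none against naive was 12, Fcrla losing its call, and the block moved no other count apart from d10 int against d10 none. Quantile normalization moved the median of all genes by up to 0.0304 and centring by up to 0.058.

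Limits: dim genes and changes under about log2 1 can be missed, no detection calls were used, and the set has no independent measure of cell purity. Larger changes can be missed too in genes that scatter widely. S100a9 at 1.54 in d30 int against d30 none was not called (adjusted p = 0.299 in limma). Whether signal of these genes came from other cells or from the T cells was not tested.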
